A study of Mus musculus with 18 samples.

Results

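The genes followed were 10 surface markers of reprogramming stages: Thy1, Cd44, Icam1, Epcam, Pecam1, Alpl, Fut4, Fut9, Ly6a and Kit. They were chosen as a fixed list of symbols, and where a gene had several probe sets, the one brightest on average across the arrays was used. A probe set annotated to a single symbol was found for 9 of the 10, out of 22180 genes in all. Ly6a was the gene without one and is not analysed here. Alpl had 2 probe sets and the other 8 genes 1 each.

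The data come from 18 microarrays of mouse cells of strain Black6-129X1/SvJ, 1 array per condition. The AGi cultures were reprogrammable mouse embryonic fibroblasts (MEFs) that expressed OKSM (the factors Oct4, Klf4, Sox2 and Myc, switched on with dox) and received ascorbic acid and a GSK3 inhibitor, sampled on days 2, 4, 6, 8, 10 and 12. The OKSM cultures were the same kind of bulk culture on the same days without both compounds. The other arrays were single samples: cells sorted as Thy1-positive from OKSM cultures on day 3 and labelled refractory, granulocyte-macrophage progenitors (GMPs), wild-type embryonic stem cells (ESCs), Fibroblast-iPSC (iPSCs made from fibroblasts with 4 days of AGi), GMP-iPSC (made from GMPs with 2 days of AGi) and MEFs without dox. The cultures were unsorted mixtures, and in such bulk samples fewer cells of a type and less RNA per cell cannot be told apart. Nothing says that the days were separate cultures, so p-values measure the spread between days, whatever its source.

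Fibroblasts carry the glycoprotein Thy1 and the hyaluronan receptor Cd44 on their surface, and embryonic stem cells carry other molecules in their place. Cells that leave the fibroblast state during reprogramming are commonly sorted by the loss of Thy1, then by alkaline phosphatase and the Lewis x sugar known as SSEA-1, and later by Epcam, Kit and Pecam1. The pair Cd44 and Icam1 is used in mouse cells to separate late stages, with Cd44 lost and Icam1 gained. All values below are transcript levels on the log2 scale of the deposited table, so a difference of 1 is a doubling, and the levels of different genes are not set against each other.

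Defining markers were checked in 3 of the starting and end-point cell types. The mean over 16 fibroblast markers was 8.15 in ESCs and 10.52 in MEFs, that over 15 pluripotency markers was 10.53 in ESCs and 6.20 in MEFs, and that over 10 myeloid progenitor markers was 11.23 in GMPs and 6.57 in MEFs. Array medians lay between 6.32 and 6.46. All 9 genes passed the filter on low values (the array median reached on at least 3 of 12 time-course arrays), and each would have passed on the arrays of either arm alone. The added hybridisation controls, which come from no cell, also read higher in AGi arrays, by 0.06 to 0.26 for 18 probe sets, and the differences below stand against that.

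**Figure D1:**
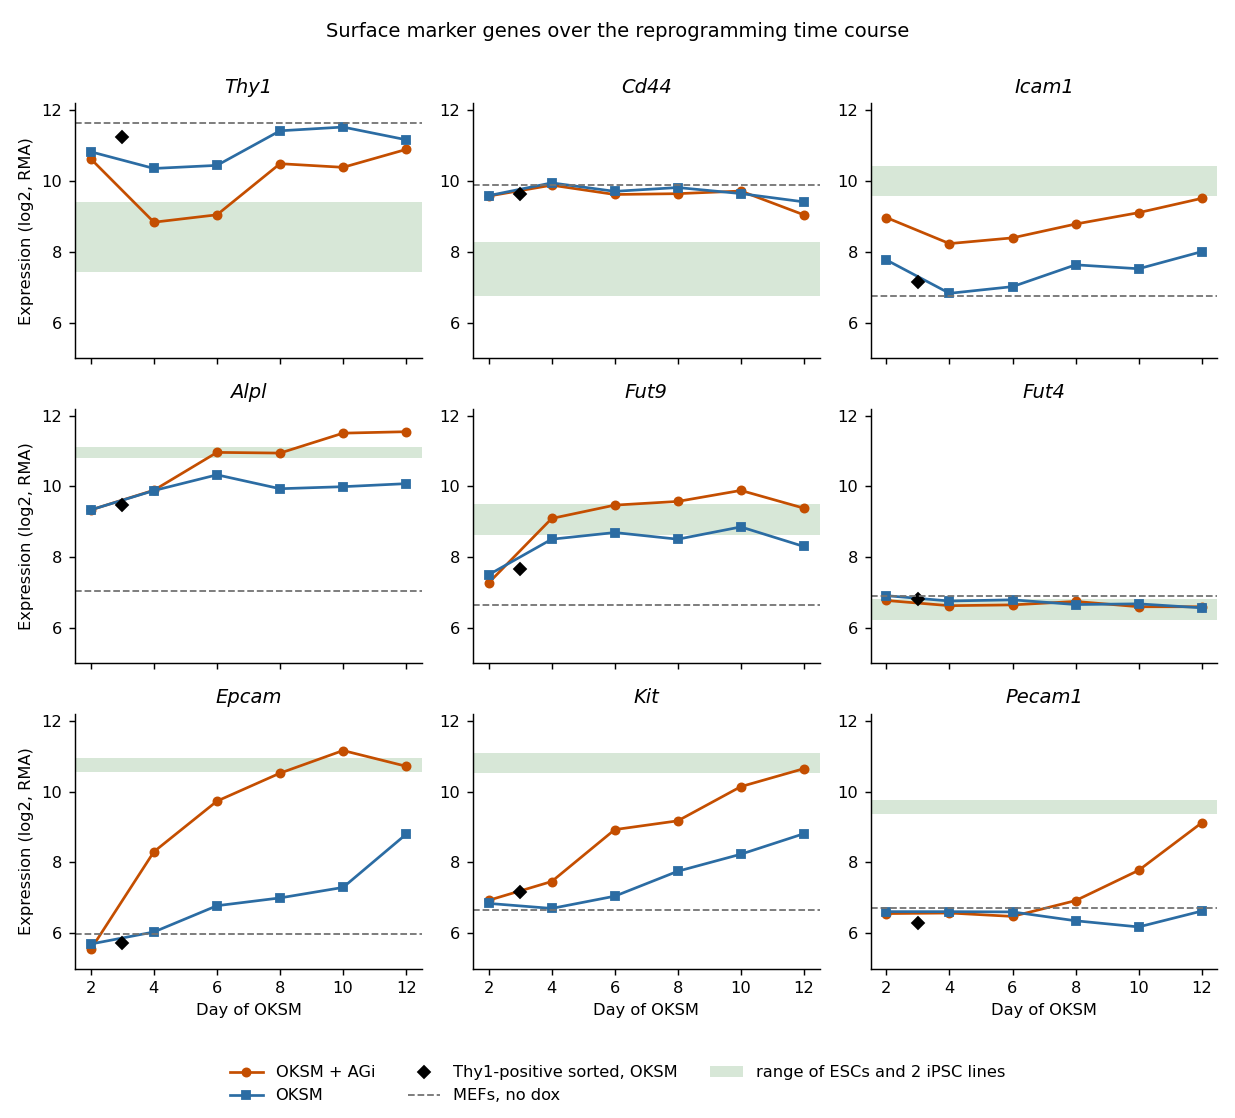
Expression (log2, RMA) of the 9 marker genes against the day of OKSM, with 1 point per array: circles for OKSM + AGi, squares for OKSM, a diamond for the sorted Thy1-positive cells, a dashed line for MEFs without dox and a band for the range of ESCs and both iPSC lines. Icam1 lies apart in the arms from day 2, Epcam from day 4, and Pecam1 leaves the MEF level in AGi cultures only after day 6.

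The question of the first comparison was which markers differed between AGi and OKSM cultures over the 6 days. Icam1, Epcam, Kit, Fut9 and Alpl were higher with AGi and Thy1 was lower, while Cd44, Fut4 and Pecam1 did not pass the test. The count of 5 higher and 1 lower among 9 stands beside 38.9% of all 13865 genes tested that were called in either direction (19.6% higher and 19.3% lower), so a call by itself was common on these arrays. The median difference of the 9 genes was 0.74, against 0.001 over all genes tested. Differences were tested with limma, with the day as a block and Benjamini-Hochberg adjustment over all genes. Against the largest hybridisation control difference in place of 0, only Icam1, Epcam and Kit were still called (3.09% of all genes were called higher and 5.44% lower by this test), with limma adjusted p = 0.0524 for Thy1, 0.111 for Fut9 and 0.173 for Alpl. With the day left out of the model, only Icam1 was called (adjusted p = 0.0561 for Epcam, 0.0841 for Thy1, 0.119 for Alpl, 0.129 for Kit and 0.185 for Fut9).

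**Figure D2:**
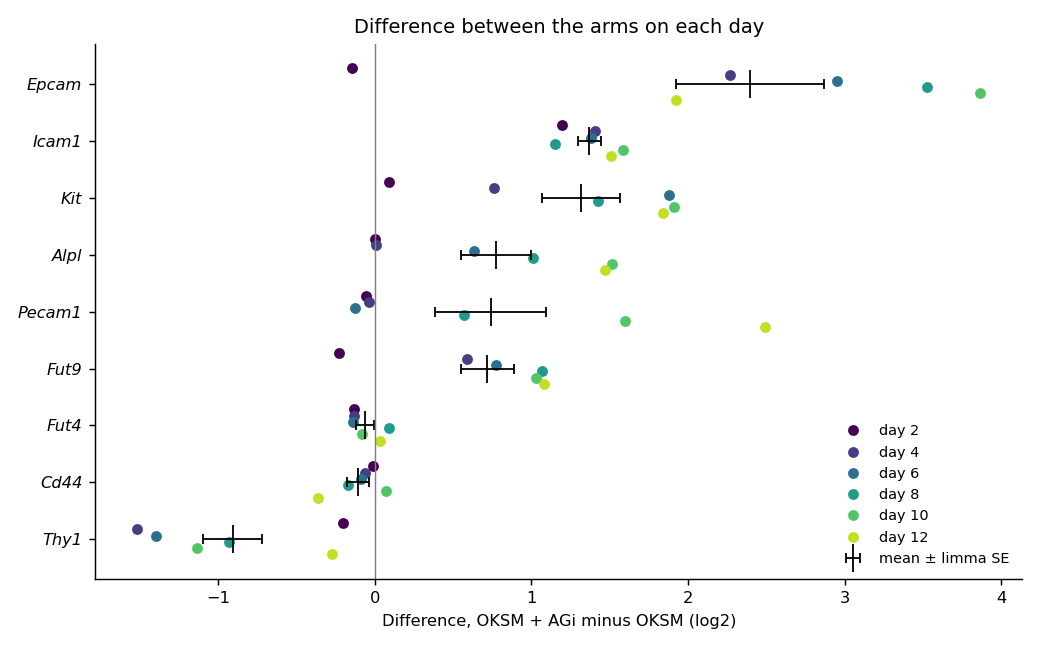
Difference in expression between OKSM + AGi and OKSM cultures (log2) for each marker gene, with 1 point per day coloured from day 2 (dark) to day 12 (light), and the mean with its limma standard error as a bar. Icam1 lies between 1.15 and 1.58 on every day, whereas Pecam1 lies near 0 up to day 6 and reaches 2.49 on day 12.

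Icam1, an adhesion molecule that binds leukocyte integrins, differed most evenly. It read 8.97, 8.24, 8.40, 8.79, 9.11 and 9.52 in AGi cultures on days 2 to 12, against 7.78, 6.83, 7.02, 7.64, 7.53 and 8.01 in OKSM cultures and 6.76 in MEFs. It was the one marker whose arms did not overlap at all, the lowest AGi array standing above the highest OKSM array, as for 5.97% of all genes tested. The difference was 1.37 ± 0.07 (limma SE, n = 6 days, adjusted p = 0.000244), higher on 6 of 6 days. The daily differences ran from 1.15 to 1.58. It was already 1.20 on day 2, when the next largest marker difference was that of Fut9, −0.23. Both arms were lower on day 4 than on day 2, and the mean over 12 macrophage markers was so too, at 7.56 on day 2 and 6.40 on day 4 in AGi cultures and 7.72 and 6.45 in OKSM cultures. Macrophages carry Icam1 as well, and their part in the level was not tested.

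Thy1, a glycolipid-anchored protein of the fibroblast surface, was lower with AGi by 0.91 on average (limma SE 0.19, n = 6 days, adjusted p = 0.00793), on 6 of 6 days. It read 10.63, 8.84, 9.05, 10.50, 10.39 and 10.90 in AGi cultures on days 2 to 12, against 10.83, 10.36, 10.45, 11.43, 11.53 and 11.17 in OKSM cultures and 11.63 in MEFs. In AGi cultures the level was lowest on days 4 and 6, within the range of the pluripotent arrays, and from day 8 it stood closer to MEFs again. Day 8 was above day 6 by 1.44 in AGi cultures and by 0.98 in OKSM cultures. The arms were closest on day 2 (a difference of −0.20) and day 12 (−0.27), and furthest apart on day 4 (−1.52).

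The mean over the 16 fibroblast markers shared the low of Thy1 on days 4 and 6. Of the 15 tested, 13 were lower with AGi and none higher, where 19.3% of all genes tested were lower and 19.6% higher. It was 9.64, 8.48, 8.77, 9.65, 9.55 and 9.71 in AGi cultures on days 2 to 12 and 10.17, 9.52, 9.48, 10.54, 10.62 and 10.62 in OKSM cultures. Both arms were thus lowest on days 4 and 6 and higher from day 8, for the mean of the list as for Thy1. On day 12 they parted: the arms differed by −0.27 for Thy1, whereas the list means were 9.71 with AGi and 10.62 in OKSM cultures. T cells also carry Thy1. The mean over 6 T cell markers was 5.53 to 5.88 in AGi cultures, highest on day 12, and 5.39 to 5.68 in OKSM cultures. Cd3e read 7.40 in AGi cultures on day 12, against 6.07 in OKSM cultures, Cd3g read 5.56 and 4.54, and Cd28 5.85 and 5.57. Lower with AGi on that day were Cd3d (5.82 and 5.86), Cd4 (5.25 and 5.78) and Cd8a (5.37 and 5.53). Cd3e also read 7.55 in ESCs. The part of T cells in the Thy1 level was not tested. Over all 18 arrays the gene with the course most like Thy1 was Col6a3, a collagen chain gene (Pearson r = 0.97 across 18 arrays), followed by Fam114a1 (0.97) and Cavin2 (0.96). These and the correlations below are descriptions over arrays that share 1 normalization, and 8240 genes were compared.

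**Figure D3:**
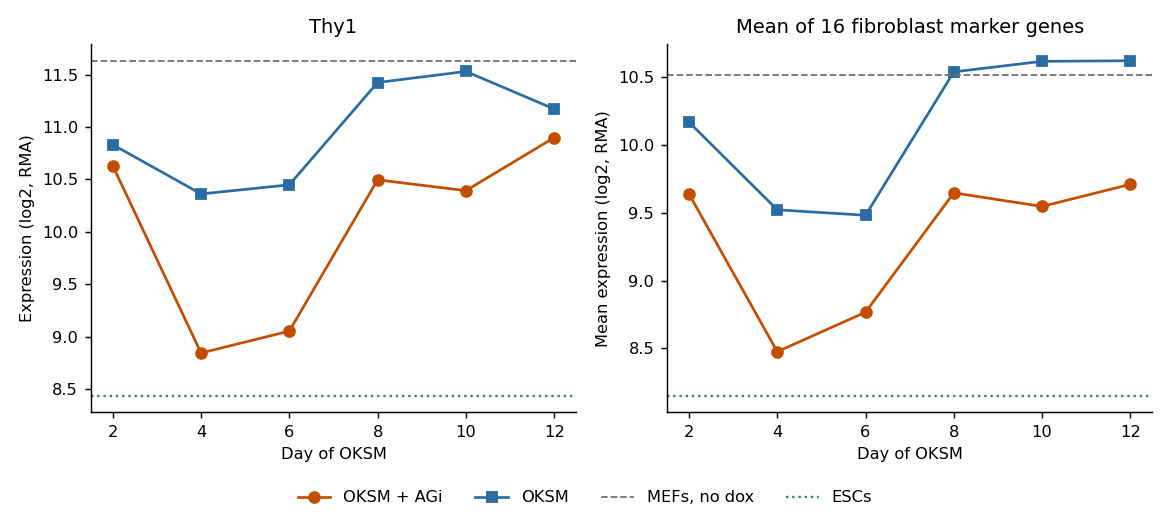
Thy1 (left) and the mean of 16 fibroblast marker genes (right), both as log2 expression against the day of OKSM, with circles for OKSM + AGi, squares for OKSM, a dashed line for MEFs without dox and a dotted line for ESCs. Both panels are lowest on days 4 and 6 in either arm, and Thy1 reaches 8.84 in AGi cultures on day 4.

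Cd44 stayed near the MEF level in both arms. It read 9.58, 9.89, 9.63, 9.65, 9.72 and 9.05 in AGi cultures on days 2 to 12, against 9.59, 9.95, 9.72, 9.82, 9.65 and 9.42 in OKSM cultures, 9.90 in MEFs and 6.95 in ESCs. The arms overlapped, and the mean difference of −0.11 ± 0.07 (limma SE, n = 6 days) did not pass (adjusted p = 0.261). The lowest value of either arm was that of AGi cultures on day 12, still above every pluripotent array. The genes with levels most like Cd44 over 18 arrays were Ccnd2, a cyclin gene (r = 0.98), Xist, the RNA that silences an X chromosome (0.96), and Wls (0.95). Cd44 lay between 9.05 and 9.95 on all time-course arrays and between 6.76 and 8.29 on the pluripotent ones. These correlations thus do not show a shared course over days.

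Epcam, an epithelial adhesion molecule, had the largest mean difference of the 9 genes. It read 5.55, 8.30, 9.73, 10.52, 11.16 and 10.72 in AGi cultures on days 2 to 12, against 5.69, 6.03, 6.77, 7.0, 7.29 and 8.79 in OKSM cultures and 5.99 in MEFs. The arms were alike on day 2 and apart from day 4 on. The day 2 values of both arms and that of MEFs lay below all array medians (6.32 to 6.46), so likeness there may be background. The difference was 2.40 ± 0.47 (limma SE, n = 6 days, adjusted p = 0.00657), higher on 5 of 6 days, with its largest value of 3.87 on day 10. With AGi, Epcam gained 0.50 ± 0.08 per day (adjusted p = 0.00218), and without it 0.28 ± 0.08 per day (adjusted p = 0.0548, and 0.0205 without day 2). In OKSM cultures 1.50 of the gain lay between days 10 and 12. Nanog, a core pluripotency factor, had the course most like Epcam (r = 0.98), followed by Slc35f2 (0.98) and Tfap2c (0.97). Of 15 pluripotency markers, 8 were higher with AGi and none lower, beside 19.6% and 19.3% of all genes tested.

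Kit, the receptor of stem cell factor, rose in both arms. It read 6.93, 7.46, 8.92, 9.17, 10.14 and 10.65 in AGi cultures on days 2 to 12, against 6.84, 6.70, 7.04, 7.75, 8.23 and 8.81 in OKSM cultures and 6.65 in MEFs. The gain was 0.38 ± 0.03 per day with AGi (limma SE, adjusted p = 3.37e-05) and 0.22 ± 0.03 per day without it (adjusted p = 0.00315). The mean difference was 1.32 ± 0.25 (n = 6 days, adjusted p = 0.00543), higher on 6 of 6 days. Mast cells and melanocytes also carry Kit. The mean over 8 mast cell markers lay between 4.83 and 4.96 in AGi cultures and between 4.96 and 5.13 in OKSM cultures, and that over 7 melanocyte markers between 6.05 and 6.47 in AGi cultures, highest on day 12, and between 6.03 and 6.18 in OKSM cultures. The part of such cells in the Kit level was not tested. Of 4 melanocyte markers tested for the AGi effect none was called by limma (1 at an unadjusted p under 0.05). Over days with AGi, 2 of the 4 rose by limma, beside 10.5% of all genes tested. These were Pmel, by 0.16 ± 0.04 per day (adjusted p = 0.0139), and Mitf, by 0.13 ± 0.03 per day (adjusted p = 0.0159). In OKSM cultures 0 of the 4 were called. The genes most like Kit were Pgap6 (r = 0.96), Celsr1 (0.96) and Spint1 (0.95).

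Alpl, the tissue-nonspecific alkaline phosphatase, was raised above MEFs from day 2 in both arms. It read 9.34, 9.89, 10.96, 10.94, 11.50 and 11.55 in AGi cultures on days 2 to 12, against 9.34, 9.88, 10.33, 9.93, 9.99 and 10.08 in OKSM cultures and 7.04 in MEFs. On days 2 and 4 the arms differed by no more than 0.01, and from day 6 AGi cultures were higher. The mean difference was 0.77 ± 0.22 (limma SE, n = 6 days, higher on 5 of 6 days, adjusted p = 0.0282). Alpl no longer passed when day 6 (adjusted p = 0.0606), day 8 (0.0836), day 10 (0.0819) or day 12 (0.0662) was left out. With AGi, Alpl gained 0.23 ± 0.03 per day (adjusted p = 0.00119), against 0.05 ± 0.03 per day without it (adjusted p = 0.335). The other Alpl probe set differed by 0.82 on average (SD 0.74 over 6 days) and was also higher on 5 of 6 days. The 3 further genes of the family, Akp3, Alpi and Alppl2, did not pass the filter in these cultures.

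Fut9 and Fut4 encode fucosyltransferases that can make the Lewis x sugar, and in mouse embryos that sugar depends on Fut9. Fut9 read 7.27, 9.09, 9.47, 9.58, 9.89 and 9.38 in AGi cultures on days 2 to 12, against 7.50, 8.51, 8.70, 8.51, 8.86 and 8.30 in OKSM cultures and 6.66 in MEFs. The AGi arrays were below the OKSM array on day 2 and above it on the 5 later days, with a mean difference of 0.72 ± 0.17 (limma SE, n = 6 days, adjusted p = 0.0135). Fut4 had a flat course, between 6.60 and 6.78 in AGi cultures and between 6.57 and 6.91 in OKSM cultures, with 6.91 in MEFs. Its arms overlapped, and the mean difference of −0.06 ± 0.06 did not pass (adjusted p = 0.434). The Fut4 values lay close to the array medians, so how well the probe set follows Fut4 is unknown. Fut9 and Alpl resembled each other (r = 0.92 across 18 arrays), and Plekha7 was the gene most like either (0.94 with Fut9 and 0.95 with Alpl).

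Pecam1, an adhesion molecule of endothelial and pluripotent cells, came last. It read 6.55, 6.57, 6.47, 6.92, 7.77 and 9.12 in AGi cultures on days 2 to 12, against 6.61, 6.61, 6.60, 6.35, 6.18 and 6.62 in OKSM cultures and 6.71 in MEFs. No OKSM array exceeded MEFs, and AGi arrays did so from day 8. The mean difference over 6 days was 0.74 ± 0.35 (limma SE) and did not pass (adjusted p = 0.132), while on days 8, 10 and 12 alone it was 1.55 (adjusted p = 0.0183). With AGi, Pecam1 gained 0.24 ± 0.04 per day (adjusted p = 0.00476, but 0.0570 without day 12). Endothelial cells and macrophages carry Pecam1 as well, and their part in its level was not tested. The mean over 11 endothelial markers was 6.60 on day 2 and 6.13 on day 12 in AGi cultures. Of 6 endothelial markers tested, 3 were lower with AGi and none higher, from Cdh5 at −0.91 ± 0.24 to Egfl7 at 0.21 ± 0.09, which did not pass. Over all genes tested, 19.3% were lower with AGi and 19.6% higher, so this count of few genes says little. The mean over 12 macrophage markers was 6.73 in AGi cultures on day 12, against 7.92 in OKSM cultures. Cd68 of that list went the other way, at 11.77 with AGi and 10.58 in OKSM cultures on that day. Of the 8 macrophage markers tested over all days, 4 were lower with AGi and 1, Cd68, higher. The genes most like Pecam1 were Dnajc6 (r = 0.98), Pim1 (0.98) and Rinl (0.97).

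Promoters of the markers that were higher with AGi are shown for the genes whose courses are described above. RefSeq promoter windows (GRCm38.p6, from 250 bases before to 50 after the start) were matched for 6 of the 9 genes, with 2 windows each for Alpl and Kit. The windows below are given 5′ to 3′ on the gene's strand, and capitals mark matches on either strand to the GC box GGGCGG or the E-box CACCTG.

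Icam1, chr9:21015690-21015989, plus strand, GC content 64.7%
Icam1: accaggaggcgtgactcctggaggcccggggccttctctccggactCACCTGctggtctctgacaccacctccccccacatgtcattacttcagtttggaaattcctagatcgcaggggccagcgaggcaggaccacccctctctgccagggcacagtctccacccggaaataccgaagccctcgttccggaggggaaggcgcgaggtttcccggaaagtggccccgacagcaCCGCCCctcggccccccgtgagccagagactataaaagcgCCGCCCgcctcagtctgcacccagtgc
Epcam, chr17:87635729-87636028, plus strand, GC content 57%
Epcam: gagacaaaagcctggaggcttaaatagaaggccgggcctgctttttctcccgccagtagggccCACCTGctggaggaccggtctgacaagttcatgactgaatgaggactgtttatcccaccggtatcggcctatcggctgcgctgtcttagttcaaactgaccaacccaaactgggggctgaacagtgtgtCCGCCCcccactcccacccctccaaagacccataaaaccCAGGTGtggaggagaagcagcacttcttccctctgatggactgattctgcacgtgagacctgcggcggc
Kit, chr5:75574737-75575036, plus strand, GC content 69.0%
Kit: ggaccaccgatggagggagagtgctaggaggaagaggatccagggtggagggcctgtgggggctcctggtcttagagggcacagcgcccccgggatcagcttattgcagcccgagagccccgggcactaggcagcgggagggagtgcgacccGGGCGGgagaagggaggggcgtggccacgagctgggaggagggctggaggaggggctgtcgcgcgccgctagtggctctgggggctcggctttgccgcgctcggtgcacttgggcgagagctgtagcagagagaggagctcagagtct
Alpl, upstream start, chr4:137796335-137796634, minus strand, GC content 70.0%
Alpl: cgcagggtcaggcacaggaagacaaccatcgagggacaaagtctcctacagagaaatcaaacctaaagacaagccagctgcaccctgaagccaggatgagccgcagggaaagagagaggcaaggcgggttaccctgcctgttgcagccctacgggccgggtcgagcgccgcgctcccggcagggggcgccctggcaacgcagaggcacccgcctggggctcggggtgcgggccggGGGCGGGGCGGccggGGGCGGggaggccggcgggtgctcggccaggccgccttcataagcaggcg

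The median GC content of all 32851 promoter windows was 52.7%, and all 4 windows lay above it. So did the windows not shown, those of Cd44 (58.0%), Fut4 (68.0%), the other Alpl start (54.3%) and the other Kit start (69.0%). Among those, the Cd44 and Kit windows also held a GC box, and the Fut4 and Alpl windows an E-box. The Icam1 window held 2 GC boxes and 1 E-box, the Epcam window 1 GC box and 2 E-boxes, the Kit window 1 GC box, and the upstream Alpl window 3 GC boxes of which 2 overlap. A GC box occurs in 35.7% of all windows and this E-box in 20.2%. The AP-1 motif TGANTCA (in 7.81% of windows), the TCF/LEF core CTTTGA (16%) and the octamer ATTTGCAT (1.74%) were also searched on both strands and had no match in these windows. The matches are descriptions of letters, not of binding sites.

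To order the markers, each level was expressed as a percent of the way from MEFs (0%) to the mean of the 3 pluripotent arrays (100%). Such a path existed for 8 of the 9 genes, those that differed by at least 1 between these ends, as did 23.0% of all genes tested. It was a gain for 6 (Alpl, Fut9, Icam1, Epcam, Kit and Pecam1) and a loss for Thy1 and Cd44. A gene was taken as past the midpoint from the first day after which it stayed past 50%. With 1 array per day, no such day has a test.

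In AGi cultures the order of gain was Alpl by day 2, Fut9 by day 4, Epcam and Kit by day 6, Icam1 by day 8 and Pecam1 by day 12. In OKSM cultures it was Alpl by day 2, Fut9 by day 4, and Epcam and Kit by day 12, while Icam1 and Pecam1 did not get there. Epcam at 59.2% and Kit, narrowly, at 52.6% were past the midpoint there on the last sampled day only, as was Pecam1 with AGi. No later day shows whether they stayed past it. Alpl and Fut9 were thus past the midpoint on the same sampled day in both arms. The place of Alpl ahead of Fut9 rests on the probe set used. The other Alpl probe set read 7.05 in MEFs and 9.52 to 9.89 in the pluripotent arrays. On day 2 it was still nearer to MEFs, at 7.70 with AGi and 7.90 in OKSM cultures. It was past its midpoint from day 4, at 8.71 with AGi and 8.50 in OKSM cultures, the same day as Fut9. Epcam stood at 78.9% with AGi on day 6, against 16.6% in OKSM cultures, and Kit at 55.4% with AGi, against 9.55% in OKSM cultures. Pecam1 stood at 84.6% with AGi on day 12, against −3.09% in OKSM cultures. Icam1 is placed by a narrow margin, since it stood at 67.3% with AGi on day 2, 45.0% on day 4 and 49.9% on day 6. With ESCs alone as the end point it was past the midpoint from day 2 on.

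By day 12, 6 of 6 gain genes were past the midpoint with AGi and 4 of 6 in OKSM cultures. Over all tested genes with a gain of at least 1, these shares were 83.0% and 32.0%. Of the 2 loss genes neither was past it on day 12 in either arm, where 51.9% of all loss genes were past it with AGi and 22.2% in OKSM cultures. Thy1 stood at 87.1% and 80.6% with AGi on days 4 and 6 and at 22.9% on day 12. In OKSM cultures its highest position was 39.7%, on day 4. Cd44 reached 33.2% with AGi and 18.9% in OKSM cultures, both on day 12. Alpl and Fut9 went beyond the pluripotent mean with AGi, to 114.4% and 113.7% on day 12.

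**Figure D4:**
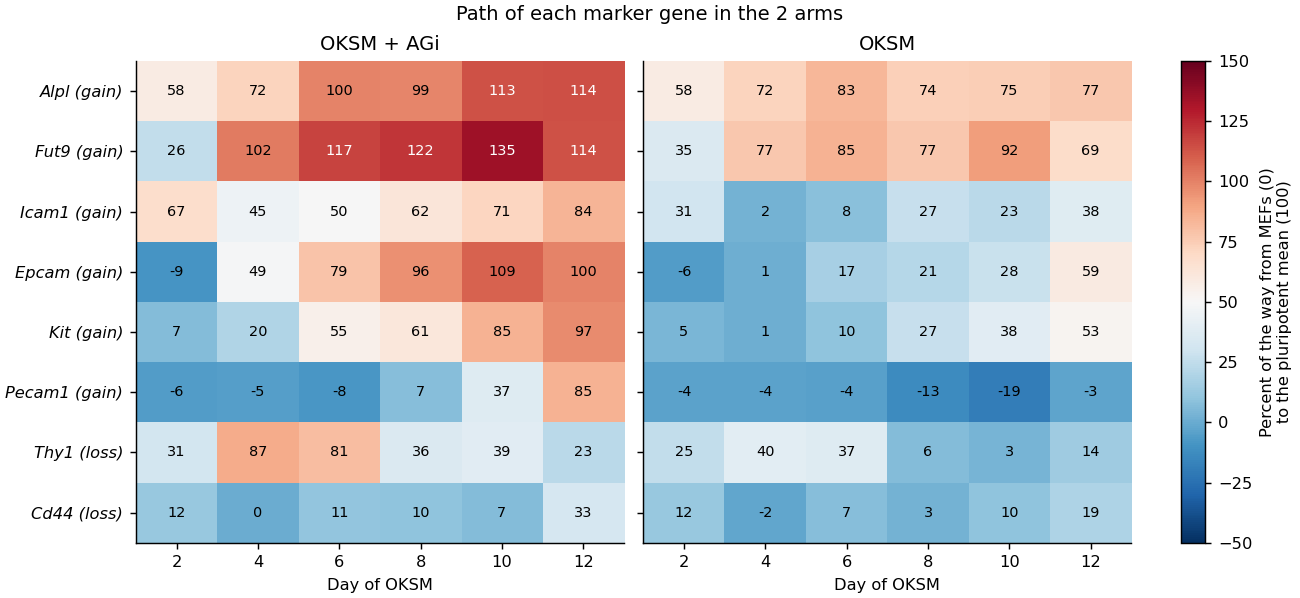
Position of the 8 marker genes with a path, in percent of the way from MEFs (0) to the mean of ESCs and both iPSC lines (100), by day of OKSM, for OKSM + AGi on the left and OKSM on the right. Gain genes fill in from Alpl at the top to Pecam1, and Thy1 is past 50 only on days 4 and 6 with AGi.

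Whether the arms drew apart over time was asked of the slopes. With AGi, 4 of 9 markers rose over days (Kit, Alpl, Epcam and Pecam1, beside 10.5% of all genes tested that rose and 18.8% called in either direction), and in OKSM cultures 1 did (Kit, beside 5.11% and 8.99%). None fell in either arm by limma, where 8.23% of all genes fell with AGi and 3.87% in OKSM cultures (at an unadjusted p under 0.05, Fut4 fell by 0.03 per day in OKSM cultures). The difference of the slopes passed for none of the 9 by limma, beside 3.06% of all genes, 1.76% called higher and 1.3% called lower. At an unadjusted p under 0.05 there were 3. These were Pecam1, which gained 0.26 ± 0.06 more per day with AGi (adjusted p = 0.0512), Kit with 0.17 ± 0.04 more (adjusted p = 0.0548) and Alpl with 0.17 ± 0.05 more (adjusted p = 0.0674). They were close enough to the threshold for the outcome to turn on single days: without day 6, Alpl (adjusted p = 0.0200) and Kit (0.0240) passed, and without day 2 Pecam1 did (0.0347). The slopes of Icam1 differed by 0.03 ± 0.06 per day (adjusted p = 0.874), its difference between the arms being much the same on each day.

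Several slopes passed only when 1 day was left out. Without day 2, Icam1 rose by 0.16 per day with AGi (limma adjusted p = 0.00110) and by 0.14 per day in OKSM cultures (adjusted p = 0.00449), Thy1 rose by 0.27 per day with AGi (adjusted p = 0.00567), and Cd44 fell by 0.08 per day with AGi (adjusted p = 0.0489). Without day 12, the Fut9 slope with AGi passed (adjusted p = 0.0359).

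The sorted Thy1-positive cells came from OKSM cultures on day 3, between the sampled days 2 and 4, and were compared by size only. Thy1 read 11.24 in these cells, against 10.83 and 10.36 in OKSM cultures on days 2 and 4 and 11.63 in MEFs. As Thy1 was used for the sort, its level is a description. Of the 9 markers, 6 lay between the OKSM cultures of days 2 and 4, as did 34.3% of all genes tested. Kit was above both, at 7.15 in sorted cells against 6.84 and 6.70 in OKSM cultures on days 2 and 4, and Pecam1 was below both, at 6.29 in sorted cells against 6.61 in OKSM cultures on each day. These Pecam1 values lay close to the array medians of 6.32 to 6.46, so a difference of this size may be background. No marker differed from either OKSM culture by 1 or more (0.822% of all genes were higher and 0.808% lower than on day 2 by that much, and 0.894% and 1.14% than on day 4).

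Against MEFs, the sorted cells were higher by at least 1 for Alpl (2.43) and Fut9 (1.02), as were 4.04% of all genes, and no marker was lower by as much (3.12% of all genes were). Alpl read 9.47 and Fut9 7.68 in the sorted cells, against 7.04 and 6.66 in MEFs, so cells that kept Thy1 had raised levels of both. The other Alpl probe set read 8.27 in sorted cells and 7.05 in MEFs. Epcam read 5.73 in sorted cells and 5.99 in MEFs, both below the array medians. Against AGi cultures of day 4, the sorted cells were lower for Epcam (−2.58), Fut9 (−1.42) and Icam1 (−1.09), beside 2.35% of all genes. Thy1 was higher (2.40, beside 4.18% of all genes), which is again a description, as Thy1 was used for the sort. These arrays differ by a day as well as by the sort and the compounds, which cannot be told apart. The sorted cells and MEFs had fibroblast marker means of 10.05 and 10.52.

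**Figure D5:**
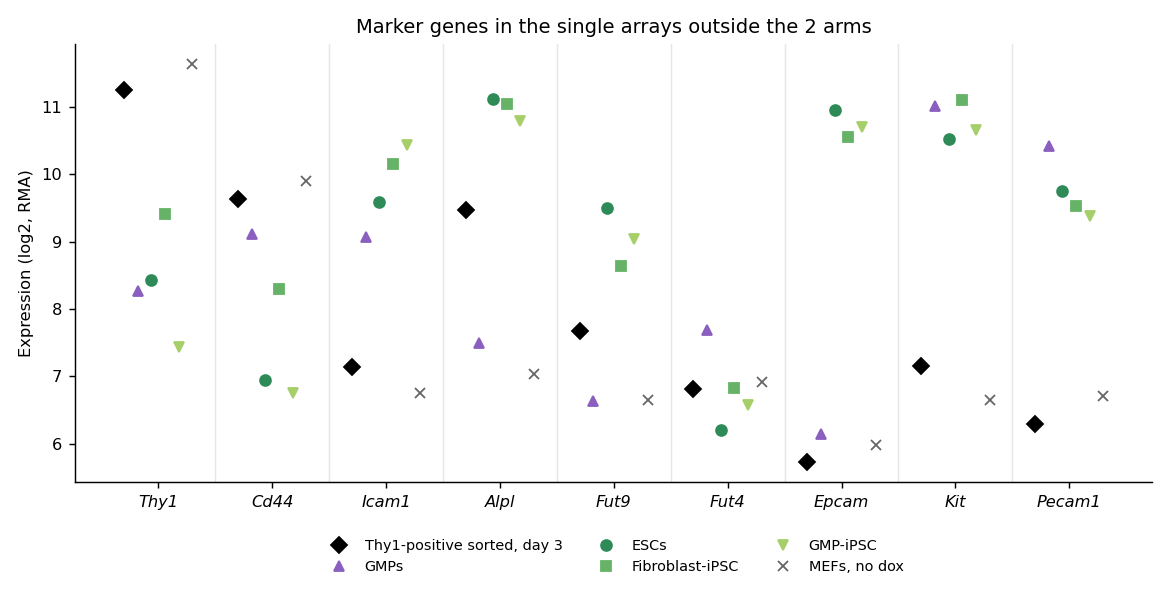
Expression (log2, RMA) of the 9 marker genes in the single arrays outside the 2 arms, with 1 point per array: sorted Thy1-positive cells, GMPs, ESCs, Fibroblast-iPSC, GMP-iPSC and MEFs without dox, from left to right for each gene. Levels are compared within a gene only, and the pluripotent arrays lie apart from MEFs for every gene but Fut4.

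Each pluripotent array was set against the same MEF array, with no replicate. In ESCs, 6 markers were higher than in MEFs by at least 1 and 2 were lower, beside 11.7% and 12.4% of all genes. Epcam was higher by 4.97, Alpl by 4.07, Kit by 3.87, Pecam1 by 3.05, Fut9 by 2.84 and Icam1 by 2.83, while Thy1 differed by −3.20 and Cd44 by −2.95. The counts were the same in Fibroblast-iPSC (beside 9.69% and 12.0%) and in GMP-iPSC (beside 12.1% and 12.9%). Fut4 differed by −0.70 in ESCs.

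Thy1 and Cd44 were both higher in Fibroblast-iPSC and lower in GMP-iPSC than in ESCs. Thy1 read 9.41 in Fibroblast-iPSC and 7.44 in GMP-iPSC, against 8.44 in ESCs. Cd44 read 8.29 in Fibroblast-iPSC and 6.76 in GMP-iPSC, against 6.95 in ESCs, and its difference of 1.34 between Fibroblast-iPSC and ESCs was the only marker difference of 1 or more between an iPSC line and ESCs (in Fibroblast-iPSC 2.01% of all genes were higher by that much and 1.34% lower, in GMP-iPSC 0.664% and 0.945%). The fibroblast marker mean moved the same way, at 8.92 in Fibroblast-iPSC, 7.53 in GMP-iPSC and 8.15 in ESCs, and its part in these levels was not tested. Among the other 7 markers the largest differences from ESCs were −0.85 for Fut9 in Fibroblast-iPSC and 0.84 for Icam1 in GMP-iPSC.

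GMPs, the other starting cell type, already had some of the markers. Kit read 11.01, Pecam1 10.42 and Icam1 9.07 in GMPs, against 6.65, 6.71 and 6.76 in MEFs, and these 3 were higher by at least 1 (9.41% of all genes were). Kit and Pecam1 were also above their ESC levels of 10.53 and 9.76. Thy1 was lower, at 8.27 in GMPs against 11.63 in MEFs (13.0% of all genes were lower by at least 1). Alpl (7.49), Epcam (6.15) and Fut9 (6.64) differed from MEFs by 0.45, 0.16 and −0.02, with Epcam below the array medians in both. In GMP-iPSC, Alpl read 10.79, Epcam 10.69 and Fut9 9.04, all above GMPs, while Kit (10.65) and Pecam1 (9.38) were below GMPs.

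Other genes of the same surface programmes were examined as lists for the AGi effect, by which 19.6% of all genes tested were higher and 19.3% lower. Of 24 mesenchymal surface genes tested, 14 were lower with AGi and 3 higher (median −0.57, against 0.001 over all genes), with Cdh11, a mesenchymal cadherin, at −1.71 ± 0.21 and Cd34 at −1.70 ± 0.33 (limma SE) lowest and Mcam (0.94 ± 0.20) and Pdpn (0.58 ± 0.09) highest. Cd34 was above its MEF level of 8.52 in all cultures, at 9.0 to 11.3 with AGi and 11.5 to 12.1 in OKSM cultures. Of 19 epithelial and pluripotent surface genes, 13 were higher and 1 lower (median 0.78), with Tdgf1, a Nodal co-receptor, at 2.44 ± 0.75, Cdh1, the epithelial cadherin, at 2.10 ± 0.40, and Podxl lower at −0.52 ± 0.14.

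Around single markers, calls are to be read beside the 38.9% of all genes called in either direction. Of 13 genes of the Lewis x and fucose pathway, 4 were called, a smaller share than that: 1 was higher, Gfus, which makes GDP-fucose (0.20 ± 0.07), and 3 were lower, the galactosyltransferase genes B4galt2 (−0.43 ± 0.12) and B4galt1 (−0.35 ± 0.08) and Fpgt (−0.20 ± 0.06). The Gfus difference lies within the range of the hybridisation controls. Of 11 ligands and binding partners of the markers, 5 were lower and 1 higher: Lgals9 had −1.11 ± 0.20, the integrin chains Itgal (−0.39 ± 0.11), Itgam (−0.51 ± 0.17) and Itgb2 (−0.37 ± 0.11) that bind Icam1 were lower too, and Ezr, which links Cd44 to the cytoskeleton, was higher by 0.46 ± 0.11. These integrin chains are leukocyte genes, and of 8 macrophage markers tested 4 were lower with AGi and 1 higher (median −0.78, with C1qb at −1.37 ± 0.35), whose part in the integrin levels was not tested. Of 5 Ly6 family genes tested none was called by limma (0 at an unadjusted p under 0.05), with Ly6e at 0.01 ± 0.07.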

How the data were processed

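The submitters' processing notes name Affymetrix Expression Console and RMA, and the values the authors deposited are log2 RMA expression, 1 for each probe set and array. For software versions, settings, scan batches and the genome build, the sources used here give nothing. Of 41345 probe sets on each of 18 arrays, 23521 had 1 gene symbol, 1814 several and 16010 none (190 of them controls). Symbols came from the platform annotation and were brought up to date with RefSeq (GRCm38.p6), matching on gene ID.

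Differences were fitted with limma 3.58.1 in R 4.3.3 over 13865 genes (lmFit, eBayes, Benjamini-Hochberg, threshold 0.05): the AGi effect with day as a block (5 residual degrees of freedom), and slopes from a line over days in each arm (8). Each day holds 1 array of each arm, so the day pairs them. The 18 hybridisation control probe sets were those of the strand with signal. Fits were tested on simulated data. Single arrays were compared by size only. The genes, lists and tests were chosen with earlier results of these data known. Named genes were the members, the 3 genes most like each over 18 arrays (by Pearson r, among genes with a range of at least 1), and from each other list the 2 highest and 2 lowest AGi effects, with cell type genes whose level stands beside a marker; Fpgt, Itgal, Itgam and Itgb2 were named after their values were seen. The number of arrays limits the precision. Figures were drawn with matplotlib 3.10.9.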

Additional observations from a re-analysis of the deposited data

Results flagged for a closer look

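Dixon's test on the 6 arrays of an arm, or on the 6 daily differences, was run 27 times and marked 2 values, where chance marks about 1 in 20. Cd44 in AGi cultures on day 12 (9.05) lay apart below the other 5 days, which ranged from 9.58 to 9.89. Fut9 in AGi cultures on day 2 (7.27) lay apart below the other 5 days, which ranged from 9.09 to 9.89. As the 6 arrays are different days, such a value may be a point of the course.

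The AGi effect on Pecam1 was flagged because its sign differed between the early and late days. It was near 0 early, at −0.06, −0.04 and −0.13 on days 2, 4 and 6. These values are smaller in size than the largest hybridisation control difference of 0.26. On days 8, 10 and 12 it was 0.57, 1.60 and 2.49, with a mean of 1.55 over the late days. The late minus the early effect was 1.63 and did not pass (limma with the day as a block, adjusted p = 0.0921).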

How the results depend on the processing

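Of the AGi effects, 5 higher and 1 lower were also counted without a filter, with the filter on 6 arrays, with the mean of probe sets, with arrays quantile normalized again and with an intensity trend. They were 1 and 0 without the day as a block (no replicate block), 1 and 0 on days 2, 4 and 6 alone, and 3 and 0 against the largest control difference; leaving out each day gave 4 to 5 higher. On days 2, 4 and 6 alone the Pecam1 effect was −0.073, and on days 8, 10 and 12 alone that of Fut4 was 0.012, neither called. For the slope difference, 1 marker passed after quantile normalization (Kit), 1 with an intensity trend (Pecam1) and 1 with late minus early days and day as a block (replicate block; Alpl, 1.12, adjusted p = 0.0477), and leaving out each day gave 0 to 2. Leaving out each day, it changed sign for Thy1 (−0.064 to 0.14, below 0 without day 4, −0.016, or day 12) and for Cd44 (−0.035 to 0.0030, above 0 without day 12). The Cd44 slope with AGi (−0.079 to 0.0022, above 0 without day 12) and the Fut9 slope in OKSM cultures (−0.013 to 0.14, below 0 without day 2) did so too. The counts were then 4 to 6 rising and 0 to 1 falling slopes with AGi, and 1 to 3 rising in OKSM cultures. With late minus early days, 0 rose in OKSM cultures (Kit, adjusted p = 0.0909). At 67% of the way, 2 markers instead of 4 were past the point in OKSM cultures. Fewer days or degrees of freedom lower the power of these settings, and the cause of the other changes was not tested.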

Other observations

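Kitl, which encodes the ligand of Kit, read 7.05, 7.51, 7.38, 7.04, 7.18 and 6.73 in AGi cultures on days 2 to 12, against 7.58, 7.40, 6.72, 7.76, 8.35 and 8.74 in OKSM cultures. It was lower with AGi on days 2, 8, 10 and 12 and higher on days 4 and 6. Over all 6 days its difference was −0.61 ± 0.31 (limma SE, adjusted p = 0.152) and did not pass. In the sorted Thy1-positive cells Kitl read 7.99, against 6.44 in MEFs.

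Cd3e, a T cell gene, read 9.36 in Fibroblast-iPSC, 7.49 in GMP-iPSC and 7.55 in ESCs, against 6.48 in MEFs, and 7.40 in AGi cultures on day 12. Cd3d read 6.42 in Fibroblast-iPSC, against 5.51 in ESCs, and Cd3g 5.95 in Fibroblast-iPSC, against 4.65 in ESCs. Cd4 read 6.00 in Fibroblast-iPSC, against 5.72 in ESCs, and Cd8a 5.5 in Fibroblast-iPSC, against 5.38 in ESCs. Cd28 was lower, at 5.60 in Fibroblast-iPSC, against 5.74 in ESCs. In the same Fibroblast-iPSC array Thy1 was 0.98 above ESCs, Cd44 was 1.34 above, and the fibroblast marker mean was 8.92, against 8.15. The part of T cells in that Thy1 level was not tested.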
